A study of Homo sapiens with 12 samples.

Results

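The E2F family and its DP partners were described in T-47D cells under palbociclib, a drug that blocks the cell cycle kinases CDK4 and CDK6. The members were chosen by gene symbol and are E2F1 to E2F8, TFDP1 and TFDP2, 10 genes of the 19460 in the RNA table. T-47D is a human breast cancer cell line with oestrogen receptor, labelled wild type and grown in medium with serum. One group received 1 µM palbociclib for 24 h and the other the solvent DMSO for 24 h, stated as 0.1% for the chromatin libraries. Poly(A) RNA-seq and ATAC-seq, which reads how accessible chromatin is to the Tn5 transposase, were each run on 3 biological replicates per group. The splicing tables held 76 events in 8 of the 10 genes, with none listed for E2F1 or E2F2.

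E2F proteins bind DNA beside the genes needed for entry into S phase, most of them as dimers with a DP protein. In cells that are not cycling, the pocket proteins RB1, RBL1 and RBL2 bind the E2F proteins and hold these genes down. Cyclin D with CDK4 or CDK6 phosphorylates the pocket proteins and frees the activators E2F1, E2F2 and E2F3. E2F4 and E2F5 act mainly as repressors together with RBL1 and RBL2, E2F6 represses without a pocket protein, and the atypical E2F7 and E2F8 repress without a DP partner.

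RNA levels are FPKM, fragment counts scaled to library depth and to transcript length, so that levels can be compared between genes. Changes are palbociclib minus DMSO on the log2(FPKM + 1) scale, which understates the change of low genes, with limma's standard error (SE) and a Benjamini-Hochberg adjusted p over all 15869 genes tested. A gene was called at an adjusted p under 0.05. The 6 RNA libraries correlated at 0.995 or more within groups and at 0.971 or less between them. For the ATAC libraries the gap was narrower, at 0.985 or more within groups and 0.982 or less between them. ATAC counts in peaks ran from 12830062 to 18250496 per library. Luminal epithelial markers were all present, 8 of 8 at a mean FPKM of at least 1, and their sum was 5510 to 6038 FPKM in DMSO and 7386 to 8176 with palbociclib. Of 13 markers of basal, fibroblast, leukocyte and endothelial cells, ACTA2 and COL1A1 reached that level, and 8 have no row in the table. The only leukocyte marker with a row, CD68, stayed at 0.173 FPKM or lower. The sum of the 2 fibroblast markers with a row was 23.5 to 24.7 FPKM in DMSO and 24.1 to 26.3 with palbociclib. The part of these marker levels in the results was not tested. Bulk libraries cannot tell fewer cells in a cycling state from less RNA per cell.

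Of the 10 members, 6 fell, 1 rose and 3 were not called. Over all genes tested, 43.7% were called, 22.9% lower and 20.9% higher. The members called lower were E2F1, E2F2, E2F6, E2F7, E2F8 and TFDP1, and E2F5 was called higher. E2F3, E2F4 and TFDP2 were not called. The median change of the 10 was -0.56, against 0.00 over all genes tested. A fall of at least 1 on the log2 scale was met by E2F1, E2F2, E2F7 and E2F8, and by 3.04% of all genes tested. Treated and control libraries were fully separated for 8 of the 10 members, the exceptions being E2F4 and TFDP2, against 54.7% of all genes tested.

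**Figure D1:**
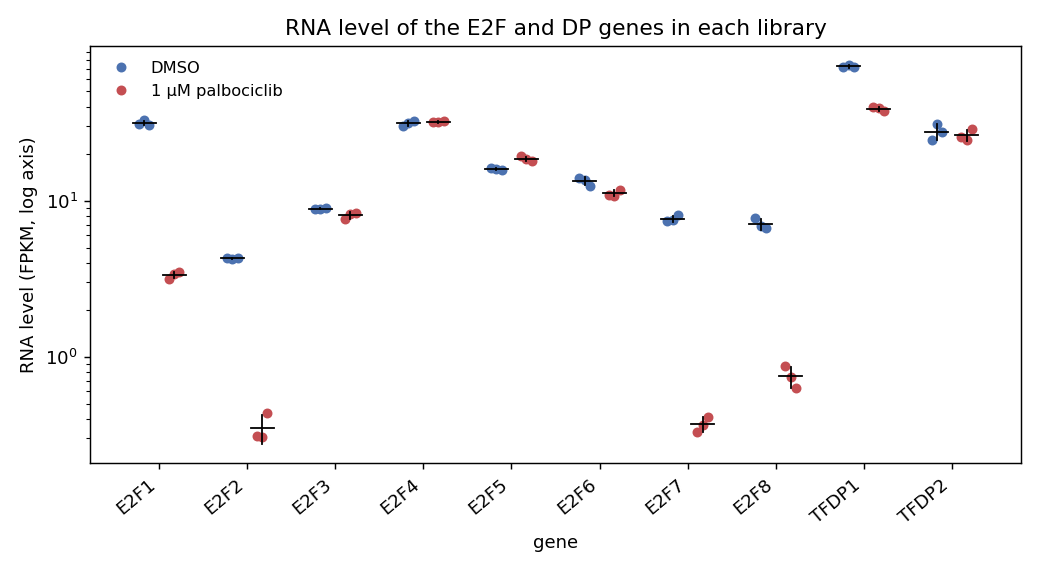
RNA level of each member in each library, in FPKM on a log axis, with blue points for DMSO and red points for palbociclib; horizontal bars are means and vertical bars are ± 1 SD over 3 libraries. E2F1, E2F2, E2F7 and E2F8 drop far below their DMSO libraries, TFDP1 drops to 53.5% of its DMSO mean, and E2F4 and TFDP2 overlap between groups.

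The sequences just upstream of the starts are shown first, because the chromatin data below are read at these starts and because E2F sites are known to lie there in several family genes. Each run is taken 5′ to 3′ on the gene's strand from RefSeq's promoter table on GRCh38.p14, and ends before the start. Capitals mark 7-letter E2F cores, searched on both strands as the last 7 letters of TTTCCCGC, TTTCGCGC, TTTGCCGC and TTTGGCGC. Positions count back from the start, with -1 the base before it. E2F1 lies on chromosome 20 and E2F2 on chromosome 1, both on the minus strand.
E2F1, chr20:33686386-33686635, minus strand: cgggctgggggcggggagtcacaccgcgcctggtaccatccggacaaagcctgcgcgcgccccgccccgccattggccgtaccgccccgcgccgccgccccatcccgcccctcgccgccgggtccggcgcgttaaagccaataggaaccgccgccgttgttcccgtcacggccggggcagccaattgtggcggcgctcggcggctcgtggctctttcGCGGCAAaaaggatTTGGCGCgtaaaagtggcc
E2F2, chr1:23531234-23531483, minus strand: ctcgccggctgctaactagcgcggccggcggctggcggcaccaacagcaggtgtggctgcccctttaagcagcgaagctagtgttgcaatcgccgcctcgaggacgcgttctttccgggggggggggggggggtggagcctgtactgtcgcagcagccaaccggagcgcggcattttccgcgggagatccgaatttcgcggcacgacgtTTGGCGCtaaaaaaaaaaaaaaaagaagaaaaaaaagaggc
The E2F1 window held cores beginning at -33 and -19, and the E2F2 window held 1 at -41.

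E2F3 has 2 starts in the table, on the plus strand of chromosome 6, and the second lies inside the gene. Both are shown because the peak at one was called lower and the peak at the other was not.
E2F3 first start, chr6:20401629-20401878, plus strand: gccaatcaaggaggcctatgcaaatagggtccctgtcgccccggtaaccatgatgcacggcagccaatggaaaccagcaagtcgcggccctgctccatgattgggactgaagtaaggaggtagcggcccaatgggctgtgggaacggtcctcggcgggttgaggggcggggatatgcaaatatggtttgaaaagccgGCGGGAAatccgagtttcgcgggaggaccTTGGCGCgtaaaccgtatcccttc
E2F3 second start, chr6:20403364-20403613, plus strand: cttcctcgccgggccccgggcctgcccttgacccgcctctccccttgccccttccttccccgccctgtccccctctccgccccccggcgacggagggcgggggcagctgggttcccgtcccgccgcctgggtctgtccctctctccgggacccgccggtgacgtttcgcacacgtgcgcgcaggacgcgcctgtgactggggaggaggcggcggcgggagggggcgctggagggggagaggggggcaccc
Cores began at -53 and -24 of the first start, and these letters were not in the window of the second start.

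E2F7, TFDP1 and E2F4 complete the set, as the member that kept the lowest share of its DMSO mean, a DP partner that fell, and a repressor that was not called.
E2F7, chr12:77065570-77065819, minus strand: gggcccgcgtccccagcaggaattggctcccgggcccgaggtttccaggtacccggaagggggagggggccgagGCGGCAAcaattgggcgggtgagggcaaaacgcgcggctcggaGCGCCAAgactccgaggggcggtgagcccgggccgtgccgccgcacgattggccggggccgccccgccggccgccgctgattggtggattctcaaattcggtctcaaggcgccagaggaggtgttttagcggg
TFDP1, chr13:113584503-113584687, plus strand: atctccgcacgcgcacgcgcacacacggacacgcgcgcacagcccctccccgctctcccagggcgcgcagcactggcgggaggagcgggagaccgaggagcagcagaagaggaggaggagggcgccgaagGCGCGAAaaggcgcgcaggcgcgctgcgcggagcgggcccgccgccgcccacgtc
E2F4, chr16:67191905-67192154, plus strand: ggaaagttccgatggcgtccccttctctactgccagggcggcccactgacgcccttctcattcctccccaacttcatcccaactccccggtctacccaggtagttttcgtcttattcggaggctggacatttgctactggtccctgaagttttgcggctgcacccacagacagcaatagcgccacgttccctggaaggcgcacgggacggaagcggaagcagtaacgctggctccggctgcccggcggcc
E2F7 held cores at -176 and -133. The TFDP1 core began at -120 of the tabulated start at 113584753, and the run shown stops before the outermost start of the gene. The letters were not found in the 250 bases before the starts of E2F4 or E2F6, nor before the 3 starts of TFDP2. E2F5 and E2F8 are named only.

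A core of 7 letters was found in 10.9% of all 35116 promoter windows of the same 250 bases, and in 16.1% of the 15705 windows of genes tested. In genes called lower by at least 1 on the log2 scale it was in 29.0% of 490 windows, and in genes called higher in 11.7% of 3515. The stricter form with all 8 letters contains the 7-letter core and was in 2.79% of all windows and 4.20% of windows of genes tested. It was in 12.7% of windows of genes called lower by at least 1 on the log2 scale, and in 2.28% of those called higher. Among members it was met at E2F1, E2F2, the first start of E2F3 and TFDP1. A match of letters is a description and not a measured binding site.

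Among the activators, E2F1 and E2F2 fell and E2F3 was not called. E2F1, an activator of genes for S phase entry, stood at 31.2, 32.6 and 30.7 FPKM in DMSO and at 3.15, 3.38 and 3.48 FPKM with palbociclib. E2F2, which acts alongside E2F1, stood at 4.30, 4.25 and 4.27 FPKM and then at 0.310, 0.305 and 0.435 FPKM. E2F3, the activator with alternative starts, was at 8.77, 8.89 and 8.96 FPKM in DMSO and at 7.59, 8.24 and 8.33 FPKM with palbociclib. For E2F1 and E2F2 every treated library lay far below every DMSO library, whereas for E2F3 the groups were separated by a narrow gap.

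E2F1 fell to 10.6% of its DMSO mean (31.5 ± 1.03 to 3.34 ± 0.164 FPKM, SD, n = 3; log2 change -2.91, SE 0.05, limma adjusted p = 1.33e-09). E2F2 fell to 8.19% (4.27 ± 0.0264 to 0.3498 ± 0.0741 FPKM; log2 change -1.97, SE 0.07, limma adjusted p = 1.58e-07). At E2F2's low level the log2(FPKM + 1) scale hides part of the fall, and with a pseudocount of 0.1 FPKM its log2 change was -3.29. E2F3 kept 90.8% of its DMSO mean and was not called (log2 change -0.13, SE 0.05, 95% interval -0.25 to -0.01, limma adjusted p = 0.0856). The authors' deposited table, from DESeq2 on counts, gives E2F3 a log2 change of -0.14 and an adjusted p of 0.0524.

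Set against E2F3, E2F1 changed its rank. The ratio of E2F1 to E2F3 in FPKM was 3.55, 3.67 and 3.42 in DMSO and 0.416, 0.410 and 0.417 with palbociclib. E2F1 was thus the most abundant activator in every DMSO library and stood below E2F3 in every treated library. The exact two-sided permutation test gave p = 0.10, the smallest that 3 libraries against 3 allow. This and the 4 other ratios given below were chosen after the values were seen, and each has an adjusted permutation p of 0.10.

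Of the pocket-bound repressors, E2F5 rose and E2F4 was not called. E2F4, the most abundant repressor of the family here and a subunit of the DREAM complex of quiescent cells, stood at 30.1, 31.6 and 32.2 FPKM in DMSO and at 31.7, 31.7 and 32.1 FPKM with palbociclib. E2F5, its close relative, was at 16.1, 15.9 and 15.6 FPKM and then at 19.2, 18.4 and 17.9 FPKM. The treated E2F4 libraries lay within the range of the controls, and all 3 treated E2F5 libraries lay above all 3 controls.

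E2F5 rose to 117% of its DMSO mean (15.8 ± 0.214 to 18.5 ± 0.636 FPKM, SD, n = 3; log2 change 0.21, SE 0.04, limma adjusted p = 0.00385). For E2F4 the log2 change was 0.03 (95% interval -0.06 to 0.11, limma adjusted p = 0.610). The ratio of E2F5 to E2F4 was 0.534, 0.502 and 0.486 in DMSO and 0.605, 0.582 and 0.558 with palbociclib, with no overlap (exact permutation p = 0.10). In DMSO the ranges of E2F4 and E2F1 overlapped, with an E2F1 to E2F4 ratio of 1.04, 1.03 and 0.953. With palbociclib that ratio was 0.0995, 0.107 and 0.108, so E2F4 RNA was several times that of E2F1 in each treated library (exact permutation p = 0.10).

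E2F6, the repressor that works in a Polycomb complex, stood at 13.9, 13.6 and 12.5 FPKM in DMSO and at 10.9, 10.8 and 11.7 FPKM with palbociclib. The highest treated library was close to the lowest control. E2F6 fell to 83.5% of its DMSO mean (13.3 ± 0.764 to 11.1 ± 0.511 FPKM; log2 change -0.24, SE 0.06, limma adjusted p = 0.00917). With quantile normalization the call was lost (log2 change -0.14, limma adjusted p = 0.0782).

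Both atypical repressors fell. E2F7, which represses E2F targets late in S phase and is itself an E2F target, stood at 7.42, 7.48 and 8.04 FPKM in DMSO and at 0.330, 0.368 and 0.414 FPKM with palbociclib. E2F8, its partner in heterodimers, stood at 7.75, 6.83 and 6.70 FPKM and then at 0.868, 0.741 and 0.635 FPKM. Every treated library of both genes was under 1 FPKM and every control above 6.

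E2F7 kept 4.85% of its DMSO mean, the lowest share of the 10 members (7.65 ± 0.344 to 0.371 ± 0.0419 FPKM, SD, n = 3; log2 change -2.66, SE 0.07, limma adjusted p = 1.38e-08). E2F8 kept 10.5% (7.09 ± 0.571 to 0.748 ± 0.117 FPKM; log2 change -2.21, SE 0.08, limma adjusted p = 1.55e-07). Because both ended below 1 FPKM, a pseudocount of 0.1 FPKM moved their log2 changes to -4.04 for E2F7 and -3.09 for E2F8. The authors' deposited table gives log2 changes of -4.36 and -3.26, from mean normalized counts of 1352 and 860.

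Of the DP partners, TFDP1 fell and TFDP2 was not called. TFDP1, the main dimer partner of the E2F proteins and the most abundant transcript of the 10 in both groups, stood at 71.2, 74.0 and 71.7 FPKM in DMSO and at 39.5, 39.3 and 37.2 FPKM with palbociclib. TFDP2, the second partner, was at 24.4, 30.9 and 27.5 FPKM and then at 25.6, 24.5 and 28.7 FPKM. TFDP1 separated the groups widely, while for TFDP2 the treated libraries lay within the control range.

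TFDP1 fell to 53.5% of its DMSO mean (72.3 ± 1.443 to 38.7 ± 1.27 FPKM; log2 change -0.89, SE 0.04, limma adjusted p = 2.84e-07). TFDP2 kept 95.2% of its mean (log2 change -0.06, 95% interval -0.26 to 0.13, limma adjusted p = 0.577). Its sign turned to 0.02 with quantile normalization and also without DMSO replicate 2, its highest library. The ratio of TFDP1 to TFDP2 was 2.91, 2.39 and 2.61 in DMSO and 1.54, 1.603 and 1.30 with palbociclib (exact permutation p = 0.10). TFDP1 made up 72.4% ± 1.96 of the summed DP RNA in DMSO and 59.6% ± 2.73 with palbociclib.

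The order of the levels changed accordingly. In DMSO it ran TFDP1, E2F1, E2F4, TFDP2, E2F5, E2F6, E2F3, E2F7, E2F8 and E2F2, by mean FPKM. Of these neighbours, E2F1 with E2F4, E2F4 with TFDP2, and E2F7 with E2F8 overlapped over the 3 libraries. With palbociclib the order was TFDP1, E2F4, TFDP2, E2F5, E2F6, E2F3, E2F1, E2F8, E2F7 and E2F2, and among these neighbours E2F7 and E2F2 overlapped. E2F1 moved from rank 2 to rank 7. RefSeq lists pseudogenes of E2F3, E2F4, E2F6 and TFDP1, and other genes overlap E2F5 (RBIS) and E2F8 (CSRP3-AS1). How reads were shared with these is not given, so the levels of these members carry that uncertainty.

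The summed RNA of E2F1 to E2F8 was 119, 121 and 119 FPKM in DMSO and 74.1, 73.9 and 75.1 FPKM with palbociclib. The summed DP RNA was 95.7, 105 and 99.2 FPKM and then 65.1, 63.9 and 65.9 FPKM. Both sums were lower in every treated library (exact permutation p = 0.10 for each). Within the E2F sum, activators held 37.2% ± 0.472 in DMSO and 15.8% ± 0.756 with palbociclib (SD, n = 3). E2F4 and E2F5 together held 39.3% ± 0.809 and then 67.7% ± 1.01. E2F6 held 11.1% ± 0.588 and then 15.0% ± 0.556, although its own level was lower. The atypical pair held 12.3% ± 0.454 and then 1.51% ± 0.110. No class overlapped between the groups, and the exact two-sided permutation p was 0.10 for each of the 4 shares, which depend on one another because they sum to the whole.

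**Figure D2:**
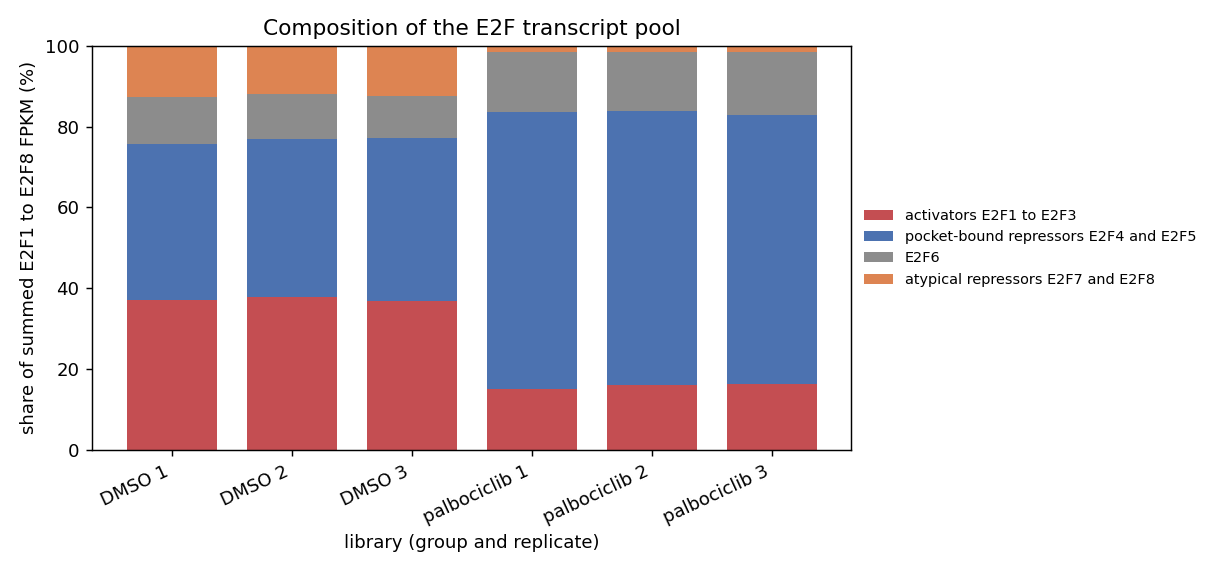
Share of the summed E2F1 to E2F8 FPKM held by each class in each of the 6 RNA libraries, in percent. The activators hold 36.9% to 37.8% under DMSO and 14.9% to 16.3% under palbociclib, and E2F4 with E2F5 hold 38.6% to 40.2% and then 66.7% to 68.7%.

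Accessibility was read from ATAC counts in the authors' shared set of 38121 peaks, as CPM, counts scaled to the library's effective total, with the edgeR quasi-likelihood test over all peaks. Within 1 kb of a listed start, 10 peaks lay at 8 of the genes. Of these, 6 were called lower and 0 higher, and at an unadjusted p under 0.05 edgeR likewise gave 0 higher, as did DESeq2 at an adjusted p under 0.05. Over all peaks, 6.46% were called lower and 5.41% higher, and among the 6411 peaks within 1 kb of any listed start 11.1% were called lower and 1.86% higher. Within that distance of E2F5 or E2F6 the table held no peak. The nearest was 4936 bases from the E2F5 start and 19003 bases from the E2F6 start, and neither was called (edgeR adjusted p = 0.189 and 0.965).

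The E2F7 peak (chr12:77065175-77066178, spanning the start) read 157, 139 and 149 CPM in DMSO and 92.7, 86.6 and 88.2 CPM with palbociclib. The E2F8 peak (chr11:19240446-19241327, inside the gene with its edge 328 bases from the start) read 94.985, 85.0 and 94.6 CPM and then 51.4, 55.0 and 54.4 CPM. These were the largest accessibility falls among the 10 start peaks, at the 2 atypical repressors. The log2 change was -0.73 for E2F7 (edgeR adjusted p = 5.72e-18) and -0.77 for E2F8 (edgeR adjusted p = 3.53e-16).

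E2F2 came next, with a peak over its start (chr1:23531025-23531955) at 39.6, 41.3 and 44.3 CPM in DMSO and 30.1, 29.0 and 29.5 CPM with palbociclib. Its log2 change was -0.50 (edgeR adjusted p = 1.85e-06). The E2F1 peak (chr20:33686242-33686916), which spans the start and the cores printed above, read 128, 122 and 126 CPM and then 105, 112 and 107 CPM. Its groups did not overlap, and the fall was small beside that of the RNA (log2 change -0.22, edgeR adjusted p = 0.00182). The TFDP1 peak (chr13:113584261-113584789) read 62.0, 63.1 and 60.2 CPM and then 52.0, 50.4 and 51.6 CPM, a log2 change of -0.27 (edgeR adjusted p = 0.00213).

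At E2F3 each start had its own peak. The peak over the first start (chr6:20401215-20402143) was the highest of the 10, at 200.0, 199.8 and 197.9 CPM in DMSO and 200.0, 200.9 and 186.5 CPM with palbociclib. The peak over the second start (chr6:20403304-20403650) read 56.1, 56.6 and 57.4 CPM and then 44.3, 41.8 and 46.9 CPM. The first was not called (log2 change -0.02, edgeR adjusted p = 0.778) and the second fell (log2 change -0.36, edgeR adjusted p = 8.31e-05). The ratio of the second peak to the first, which library scaling cannot move, was 0.281, 0.283 and 0.290 in DMSO and 0.222, 0.208 and 0.251 with palbociclib (exact permutation p = 0.10). The gene-level FPKM of E2F3 does not tell the transcripts of these starts apart. Both peaks also lie within 1 kb of a start listed for LOC124901482.

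The start peaks of E2F4 and TFDP2 were not called. The E2F4 peak (chr16:67191832-67192628) read 34.0, 36.9 and 35.3 CPM in DMSO and 40.1, 33.0 and 35.5 CPM with palbociclib (log2 change 0.03, edgeR adjusted p = 0.846). TFDP2's main start (chr3:142148910-142149837) read 65.4, 64.3 and 64.7 CPM and then 61.8, 66.7 and 61.3 CPM (log2 change -0.03, edgeR adjusted p = 0.770). A smaller TFDP2 peak over its innermost start (chr3:142028406-142028778) read 8.49 to 9.72 CPM and then 10.2 to 11.2 CPM (log2 change 0.20, edgeR adjusted p = 0.367). The groups overlapped in the first pair of these and not in the third.

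**Figure D3:**
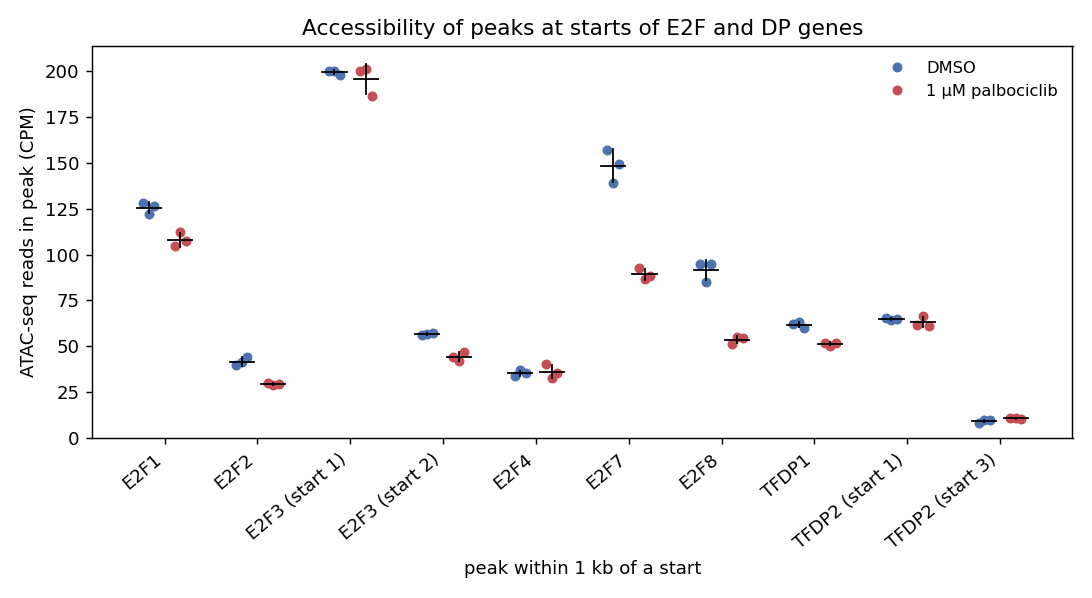
ATAC-seq CPM in the 10 peaks within 1 kb of a start, per library, with blue points for DMSO and red points for palbociclib; horizontal bars are means and vertical bars are ± 1 SD over 3 libraries. The peaks of E2F7 and E2F8 fall most, the second start of E2F3 falls while the first stays near 200 CPM, and E2F4 and the main start of TFDP2 overlap between groups.

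Side by side, the 4 genes whose RNA fell by at least 1 on the log2 scale had start peaks that were called lower, with a change in mean CPM of -14.0% at E2F1, -29.2% at E2F2, -39.9% at E2F7 and -41.5% at E2F8. E2F1 and E2F8 thus kept nearly the same share of their RNA, 10.6% and 10.5%, with -14.0% and -41.5% at their starts, a difference between peaks that was not tested. Of the 17 other peaks inside the genes or within 10 kb of them, 2 were called, both higher. One lies inside TFDP2 (chr3:142054003-142054283), 24823 bases from a start, at 3.62, 3.68 and 2.75 CPM in DMSO and 6.31, 5.03 and 4.34 CPM with palbociclib (log2 change 0.65, edgeR adjusted p = 0.0183). The other lies beyond the end of E2F4 (chr16:67208737-67209287), at 9.44, 11.96 and 10.2 CPM and then 13.7, 14.7 and 12.5 CPM (log2 change 0.36, edgeR adjusted p = 0.0475). Neither call was kept with DESeq2 (adjusted p = 0.0937 and 0.128), nor without DMSO replicate 3 or palbociclib replicate 1 (edgeR adjusted p = 0.129 and 0.183 for TFDP2, and 0.152 and 0.118 for E2F4). The E2F4 call was also lost without DMSO replicate 1 or palbociclib replicate 2 (edgeR adjusted p = 0.186 and 0.177).

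Splicing was read from inclusion and skipping counts. Of the 76 member events, 25 passed the filters (on average 20 reads or more in a library, and the rarer form at 5% or more of the raw reads summed over the 6 libraries), among them 12 in TFDP1, 5 in E2F6 and 5 in TFDP2. No member event was called by the edgeR quasi-likelihood test, with adjustment over all 37445 events tested, of which 0.363% were called. The filter on the rarer form used raw reads, which are not scaled to form length as the deposited levels are, so it does not follow the levels printed below. At an unadjusted p under 0.05 there were 4 member events of 25, against 8.53% of all events tested. Of the 4, 3 were TFDP1 rows. Some of those share the exon chr13:113610996-113611062 and nearly the same inclusion reads, so the 4 are not independent. The 3 with the lowest p follow.

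The lowest was an exon of TFDP1 (chr13:113637620-113637896), 277 bases long and so not a multiple of 3. This is the long form of the exon, and it shares its end with a 79-base form. A separate alternative 3′ splice site row puts the long form at 2.4%, 3.0% and 2.4% of their combined use in DMSO and 2.7%, 3.2% and 2.6% with palbociclib (edgeR adjusted p = 0.955). A second such row, with another upstream exon, puts it at 100%, 96.5% and 87.2% in DMSO and 91.7%, 100% and 90.9% with palbociclib. There the 79-base form had 0, 1 and 2 reads and then 1, 0 and 1, and the row was not tested. The share of the long form thus depends on the row. The cassette row of the long form holds 376, 598 and 351 inclusion reads in DMSO and 238, 244 and 248 with palbociclib. In the first alternative 3′ splice site row that form has 52, 83 and 44 reads and then 34, 38 and 34. Both forms share an end, so the inclusion level of the cassette row does not set the long form alone against skipping. That level, as deposited, was 89.2%, 85.8% and 88.5% in DMSO and 69.1%, 78.1% and 70.7% with palbociclib. All 3 treated libraries were below all 3 controls, with means of 87.8% ± 1.80 and 72.6% ± 4.801 (SD, n = 3). The log2 change of the odds of inclusion was -1.42 (edgeR adjusted p = 0.0511). The authors' deposited table, adjusted within its event type, gives this exon an FDR of 0.000752 and a difference of -0.152 in inclusion. The call depended on the setting: the edgeR adjusted p was 0.0405 with a minimum of 10 reads, 0.800 with no minimum for the minor form, and 0.0642 to 0.220 when 1 library was left out. The skipped form rested on 12, 26 and 12 reads in DMSO and 28, 18 and 27 reads with palbociclib.

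The 79-base form (chr13:113637818-113637896), the main one, shares these skipping reads, and its deposited inclusion was 97.8%, 96.5% and 97.5% and then 91.7%, 94.4% and 92.5%. It was not tested here because its skipping reads were below 5% of its raw reads, and the authors' deposited table gives it an FDR of 0.00044.

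The second event was an alternative 3′ splice site in E2F3, whose longer exon (chr6:20481206-20481425) adds 18 bases. The longer form made up 96.9%, 94.1% and 93.3% in DMSO and 91.9%, 85.3% and 87.3% with palbociclib (log2 change of the odds -1.34, edgeR adjusted p = 0.423), and the authors' deposited table gives it an FDR of 0.0463. The third is listed as a mutually exclusive pair of TFDP1 exons of 67 and 107 bases (chr13:113610996-113611062 and chr13:113623180-113623286). Its deposited level was 35.5%, 36.7% and 38.4% and then 42.9%, 41.7% and 41.0% (log2 change of the odds 0.30, edgeR adjusted p = 0.438). The cassette rows of the same exons put the 67-base exon at 99.1% to 100% and the 107-base exon at 98.3% to 100% inclusion in every library. The level of the pair is thus a ratio of reads and not a choice between the exons. In both events the groups did not overlap, and neither passed the test here. The authors' deposited table also calls an E2F4 exon (chr16:67193422-67193515) with an FDR of 0.0222 and a difference of -0.054. Its skipped form had 1, 0 and 0 reads in DMSO and 5, 7 and 2 with palbociclib, too few for the filters here. The 2 events listed for E2F7 and the 2 for E2F8 were not tested because they did not pass these filters.

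Other genes of the pathway were counted in 6 lists. Of the pocket proteins and subunits of the DREAM and MuvB complexes, which act with E2F4 or MYBL2, 7 of 9 fell and 0 rose, against 22.9% and 20.9% of all genes tested (median log2 change -0.58, highest -0.01). MYBL2, which takes over the MuvB core in S phase, fell from 68.9 ± 1.441 to 3.09 ± 0.178 FPKM (log2 change -4.10, limma adjusted p = 3.9e-10). RBL1, the pocket protein p107, fell from 9.59 ± 0.625 to 2.14 ± 0.178 FPKM (log2 change -1.75, limma adjusted p = 2.84e-07). Its relative RBL2 was at 20.9 ± 0.192 and 20.7 ± 0.778 FPKM and LIN37 at 9.23 ± 0.826 and 9.05 ± 0.856 FPKM, and neither was called (limma adjusted p = 0.840 and 0.823).

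Of the cyclins, CDKs and CDK inhibitors upstream of RB, 14 of 16 were tested, 11 fell and 1 rose, beside the same 22.9% and 20.9% (median log2 change -0.83). The count mixes genes of opposite action. Inhibitors that fell were CDKN1A, CDKN1B, CDKN2A, CDKN2C and CDKN2D (log2 change -0.92, -0.31, -0.51, -1.96 and -0.93). The inhibitor CDKN2B was not called (limma adjusted p = 0.204). The gene that rose was CCND1, cyclin D1, the activating subunit of the drug's target kinases, from 96.7 ± 2.25 to 202.7 ± 3.52 FPKM (log2 change 1.06, limma adjusted p = 2.89e-08). CCNA2, cyclin A2, fell from 45.4 ± 1.33 to 2.49 ± 0.150 FPKM (log2 change -3.73, limma adjusted p = 4.7e-10). CCNE2, cyclin E2, fell from 31.8 ± 0.568 to 1.61 ± 0.210 FPKM (log2 change -3.65, limma adjusted p = 1.75e-09).

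All 34 proliferation genes described as direct E2F targets fell (median log2 change -2.31, range -5.38 to -1.05), against a background of 22.9% called lower. RRM2, a subunit of the enzyme that makes deoxynucleotides, fell from 106 ± 2.45 to 1.57 ± 0.139 FPKM (log2 change -5.38, limma adjusted p = 3.29e-10). TYMS, thymidylate synthase, fell from 56.2 ± 2.28 to 2.76 ± 0.0987 FPKM (log2 change -3.93, limma adjusted p = 3.95e-10). Among 10 apoptosis genes described as E2F1 targets the directions were mixed, with 5 lower and 2 higher, beside 22.9% and 20.9%, and a median log2 change of -0.14. TP73, a p53 relative, fell from 3.52 ± 0.0781 to 1.84 ± 0.101 FPKM, and BCL2L11, which encodes the BH3 protein BIM, from 3.54 ± 0.368 to 2.10 ± 0.179 FPKM (limma adjusted p = 7.36e-05 and 0.000926). TP53INP1 rose from 7.52 ± 0.122 to 12.5 ± 0.257 FPKM (limma adjusted p = 8.54e-06). PPP1R13B, which encodes ASPP1, rose from 25.5 ± 1.40 to 29.2 ± 1.163 FPKM (limma adjusted p = 0.0154), and without palbociclib replicate 2 it was not called (0.0589).

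E2F6 works with a set of Polycomb partners in the complex PRC1.6, of which 6 of 12 fell and 1 rose, beside 22.9% and 20.9% of all genes tested (median log2 change -0.13). PCGF6, the subunit that defines this complex, fell from 4.46 ± 0.366 to 2.57 ± 0.0576 FPKM (log2 change -0.61, limma adjusted p = 0.000195). WDR5 fell from 32.9 ± 1.47 to 23.0 ± 1.14 FPKM (log2 change -0.50, limma adjusted p = 7.94e-05), and RING1, a ubiquitin ligase of Polycomb complexes, rose from 22.0 ± 0.497 to 25.2 ± 0.735 FPKM (log2 change 0.19, limma adjusted p = 0.00537). Of 8 germline genes described as targets of E2F6 or its complex, only 3 have a row in the table, and 2 passed the filter on low levels. Both were called lower: TDRKH went from 19.0 ± 1.12 to 16.9 ± 0.593 FPKM and ZCWPW1 from 2.97 ± 0.297 to 2.35 ± 0.127 FPKM (limma adjusted p = 0.0390 and 0.0347). Neither was called with quantile normalization (limma adjusted p = 0.288 and 0.0558) or without DMSO replicate 1 (0.126 and 0.0910), DMSO replicate 2 (0.106 and 0.114), palbociclib replicate 2 (0.0945 and 0.108) or palbociclib replicate 3 (0.103 and 0.0544), and ZCWPW1 was also lost without palbociclib replicate 1 (0.0694).

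**Figure D4:**
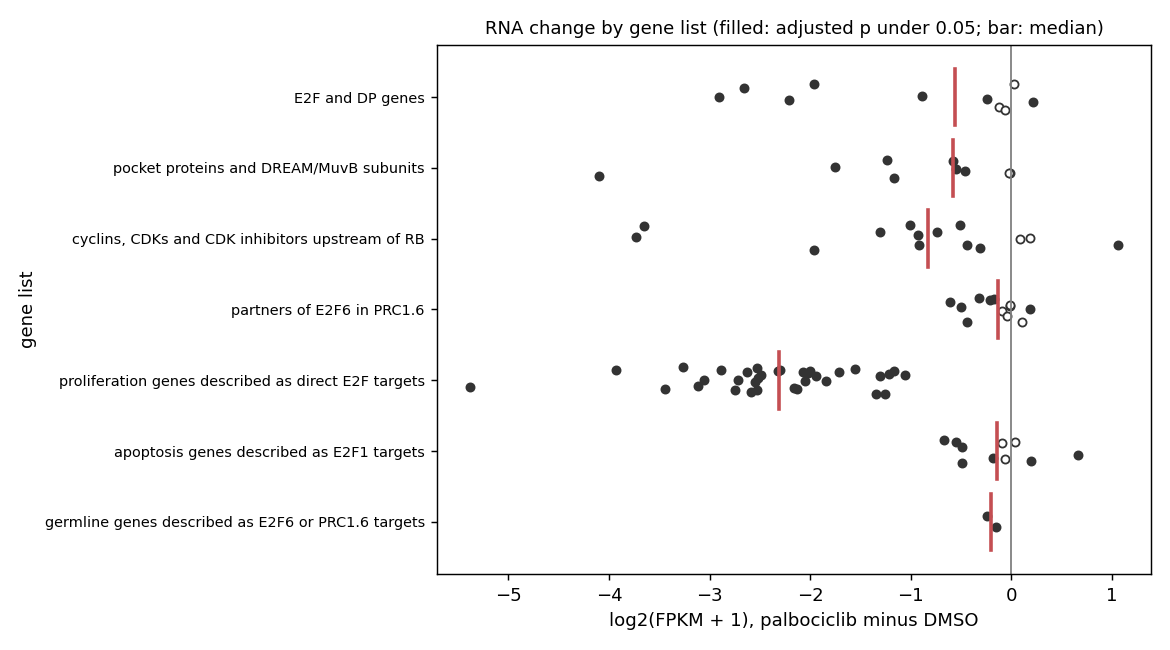
Change in RNA level of each gene tested, palbociclib minus DMSO on the log2(FPKM + 1) scale, by list; filled points passed limma at an adjusted p under 0.05 and red bars are list medians. All 34 proliferation targets lie at -1.05 or lower, while the apoptosis genes and the E2F6 partners lie on both sides of 0.

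Genes with the most similar pattern were found by the root mean square difference, over the 6 libraries, of log2(FPKM + 1) minus the DMSO mean. This measure compares changes on a scale that shrinks them at low levels, so a low gene can be matched to a higher one that kept a larger share of its RNA. For E2F1 they were MELK (0.031), BUB1B (0.036) and TK1 (0.044). E2F2 was nearest to KNTC1 (0.023), TYMSOS (0.026) and TMPO (0.038), and E2F7 to CIP2A (0.030), NEURL1B (0.040) and PTTG1 (0.045). For E2F8 the nearest were GMNN (0.050), ERCC6L (0.056) and STIL (0.060). E2F2 kept 8.19% of its DMSO mean, against 23.8% for KNTC1, 9.28% for TYMSOS and 25.1% for TMPO. E2F8 kept 10.5%, against 20.9% for GMNN, 9.36% for ERCC6L and 14.7% for STIL, and E2F7 kept 4.85%, against 11.7% for CIP2A, 9.90% for NEURL1B and 15.3% for PTTG1. TYMSOS is a transcript opposite TYMS, and the strand used in counting is not given in the sources used here, so its reads may not be its own. MELK went from 30.9 to 3.32 FPKM, close to E2F1 in level as well as in change, whereas PTTG1 went from 198.9 to 30.5 FPKM at a far higher level than E2F7.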

How the data were processed

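The RNA values were FPKM deposited by the authors, 1 column per library. The submitters' processing notes list fastp 0.23.2, Salmon 1.10.2, STAR 2.7.10b, DESeq2 1.44.0 and GRCh38 for RNA, with no order, and Bowtie2, MACS3 and featureCounts for ATAC. The authors' DESeq2 table holds a mean normalized count taken as a signal, log2 fold changes, p-values and a score (the test statistic), per the file headers. The rMATS tables hold inclusion and skipping counts per library and a difference of levels, also a score, as deposited. ATAC counts per peak were deposited over 1 peak set, and were taken as reads.

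Members were joined by gene identifier, and starts came from RefSeq (GRCh38.p14). RNA was fitted with limma 3.58.1 with trend on log2(FPKM + 1), for a mean FPKM of at least 0.5. Peaks (TMM) and events (library term, inclusion by treatment) were fitted with edgeR 4.0.16 in R 4.3.3, without pairing. Shares and ratios used exact two-sided permutation in scipy 1.17.1. Scripts were tested on simulated data.

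The members and lists were chosen with earlier results of these data known. Named items were all members, the 2 largest called rises and falls per list at a mean FPKM of at least 1, start peaks, other called member peaks, the 3 events with the lowest p, and the 3 nearest profiles of members called with a log2 change of at least 1. RBL2, LIN37, 2 peaks nearest E2F5 and E2F6, the 79-base TFDP1 exon, the cassette and splice site rows beside it, and the E2F4 exon were added after their values were seen. The replicates are labelled biological, and no batch is given. Alternatives were another pseudocount, no filters, other scaling or tools, a replicate block, and leaving out each library.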

Additional observations from a re-analysis of the deposited data

How the results depend on the processing

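The counts of members called, 6 lower and 1 higher in RNA and 6 lower and 0 higher among start peaks, were the same under all alternatives run, apart from E2F6 with quantile normalization, given above, which leaves 5 lower. That scaling moved the median change of all genes to 0.06. Directions of results not called turned in some alternatives. TFDP2's RNA change was 0.016 with quantile normalization and -0.146 to 0.017 when 1 library was left out, turning without DMSO replicate 2. For E2F4 RNA that range was -0.0012 to 0.046 (turning without DMSO replicate 1), for the E2F4 start peak -0.052 to 0.093 (palbociclib replicate 1) and for the first E2F3 start peak -0.045 to 0.0086 (palbociclib replicate 3). With TFDP1 and TFDP2 added to the pool, the shares changed by -11.9 (activators), 14.7 (E2F4 and E2F5), 1.92 (E2F6) and -5.91 percentage points (E2F7 and E2F8), by construction. Quantile normalization gave 2 E2F6 partners higher and 0 germline genes lower, and no intensity trend gave 1 germline gene lower. When 1 library was left out, 0 to 2 germline genes were lower and 1 to 2 apoptosis genes higher. With a minimum of 10 reads 1 member event was called, the TFDP1 exon. The cause was not tested. With a replicate block that event was also called (edgeR adjusted p = 0.0347) and 1 germline gene stayed lower, and the block changed no other count past 1.5 times. Same-numbered libraries deviated together at r = 0.11, -0.01 and 0.09 in RNA and 0.01, 0.04 and -0.03 in ATAC, and not every library correlated best with its own number, so the numbers were not taken as pairs. The TFDP1 exon had fewer than 30 skipping reads in each library.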
